A study of Drosophila melanogaster with 36 samples.

Results

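Partial loss of the rasputin (rin) transcript was examined in resting Drosophila cells, in 6 of the 36 libraries of the series. The 6 were chosen by their titles, which name 3 untreated Rin RNAi and 3 untreated Mock RNAi libraries. All came from S2R+ cells, a cultured Drosophila melanogaster line of the S2 family, and all were poly(A)-selected messenger RNA read as single ends of 50 bases. In RNA interference (RNAi), double-stranded RNA directs the degradation of a chosen transcript. The Rin group was directed against rin, and the Mock group was the matching control, whose added RNA, if any, the labels do not describe. Neither group received arsenite, and no transgene, selection or other agent is named for either. Mock and Rin cells were also exposed to sodium arsenite (0.5 mM, 3 h) and, in further groups, returned to fresh medium for 3 h. These stress and recovery groups, of 3 libraries each, serve below for comparison and in the estimate of spread. The labels do not say whether replicates were separate cultures. The p-values thus measure the spread within groups, pooled over the 18 Mock and Rin libraries, and this spread may be technical.

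Rasputin is the fly relative of G3BP, an RNA-binding protein best known as the scaffold on which stress granules assemble when translation stalls. In unstressed cells G3BP proteins are found dispersed in the cytoplasm, where they bind messenger RNA and partners such as Caprin and the deubiquitinase USP10. In flies, rin was first described through genetic interactions with Ras signalling in the eye and is also needed in the female germline. The series asks whether the transcriptional response to arsenite needs stress granules, and the untreated pair of groups shows what the knockdown did before any stress. Protein and granules were not measured in these libraries.

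Gene counts ranged from 6897154 to 9669428 in the 3 Mock libraries and from 8808106 to 9065035 in the 3 Rin libraries. Of the hemocyte genes that mark the S2 lineage, 10 of 12 passed the filter on low counts, led by Pxn (a peroxidasin of hemocytes) at a mean of 564 CPM in Mock and 582 CPM in Rin and by the GATA factor srp at 406 and 397 CPM. CPM stands for counts per 1e+06, after scaling for library composition. NimC1 and He, with 3 and 44 counts in all, did not pass. The summed level of the 12 genes was 1534 to 1660 CPM in Mock and 1591 to 1680 CPM in Rin. Transcript of fz, whose expression sets S2R+ apart from other S2 cells, lay at 21.7 to 32.0 CPM in Mock and 24.0 to 25.6 CPM in Rin. Summed markers of fat body (2.19 to 3.26 CPM in Mock, 2.28 to 2.99 in Rin, with Lsp1alpha at 0 counts), crystal cells (4.22 to 6.77 and 5.93 to 7.64) and ovarian somatic cells (7.57 to 9.81 and 6.98 to 10.2) were low. Those of neurons (38.1 to 52.5 CPM in Mock, 46.9 to 53.5 in Rin), muscle (92.4 to 113 and 99.0 to 102) and germline (221 to 249 and 220 to 235) were higher, and none of these sums separated the groups.

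The library of Mock control replicate 1 stood apart from the other 5. On the first principal component of the 6432 genes with a mean of at least 10 CPM, which held 45.3% of the variance, it lay at -11.7, while the other 2 Mock libraries lay at 1.55 and 0.89 and the Rin libraries at 0.57 to 4.42. Its counts differed from those of Mock replicates 2 and 3 by a chi-square, divided by its degrees of freedom, of 10.0 and 8.31, against 1.54 between those 2 and 2.09 to 3.28 within Rin. List medians and the values of named genes that moved by over 1.5 times without this library are given both ways. What set it apart was not tested.

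Transcript of rin was lower in every Rin library. It stood at 895, 912 and 896 CPM in Mock replicates 1 to 3, and at 391, 280 and 204 CPM in Rin replicates 1 to 3. The Mock values lay close together, while the Rin values ranged widely and stayed far below them. The log2 fold change was -1.63 (SE 0.21, 95% interval -2.06 to -1.19), with an adjusted p of 0.0013 by edgeR's quasi-likelihood test with Benjamini-Hochberg adjustment. On average 32.4% of the transcript remained, so the comparison concerns a partial loss. In RNA from whole cultures, fewer cells that express a gene and less RNA per cell cannot be told apart. The call did not rest on 1 library, since rin passed in all 6 fits that left out 1 of the 6 libraries. Leaving out Rin replicate 1, the highest of the 3, gave -1.89, and leaving out Rin replicate 3, the lowest, gave -1.42.

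The rin gene lies on chromosome arm 3R, from 13647004 to 13654527 on the forward strand of dm6, with an exonic length of 5711 bp. Its neighbours were close to 0 on the log2 fold-change scale. The gene for the RNA-binding protein Squid (sqd), which ends 699 bp before rin on the reverse strand, had a log2 fold change of -0.02 (SE 0.07). On the other side, Rbp4 begins 28 bp after rin and had -0.10 (SE 0.31), at only 87 counts in the 6 libraries, and Hrb87F, which encodes a nuclear RNA-binding protein, had -0.01 (SE 0.06). Leaving out Mock replicate 1 gave -0.06 for sqd and -0.25 for Rbp4. The gene before sqd, CG10841, had 0 counts.

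Few other transcripts differed. Of 8707 genes tested, 4 passed an adjusted p of 0.05 by edgeR's quasi-likelihood test with Benjamini-Hochberg adjustment, which is 0.0459% of those tested. They were rin and CG30089, which fell (0.023% of genes), and osk and Zip99C, which rose (0.023%). At an unadjusted p under 0.05 there were 649 genes, or 7.45%, with 320 higher (3.68%) and 329 lower (3.78%). The 3 Rin libraries did not overlap the 3 Mock libraries in 1350 genes, or 15.5%, of which 647 (7.43%) were higher and 703 (8.07%) lower. Log2 fold changes were above 0 in 50.5% of genes. The authors' deposited table of the same comparison, made with DESeq2, has 10 genes with an adjusted p under 0.05 among 9107 with a value (0.11%), 6 higher and 4 lower, and these include the 4.

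The data had the precision to show changes of moderate size in genes with a fair level. The median SE of the log2 fold change was 0.09. Among the 6401 genes with a mean of at least 10 CPM in Mock, the 95% interval lay within 2-fold either way for 6400, and within 1.5-fold for 99.1%. Among the 1654 genes at 1 to 10 CPM it lay within 2-fold for 85.0%. Below 1 CPM it did so for 61 of 650 genes (9.38%), and there a change of 2-fold was mostly not detectable at this depth. Such intervals rest on the spread within groups, pooled over the 18 Mock and Rin libraries.

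Transcript of osk was higher in all 3 Rin libraries. The gene, on chromosome arm 3R from 8935126 to 8938395 of dm6, encodes Oskar, the protein that builds the germ plasm at the posterior of the fly egg. It stood at 22.3, 24.3 and 22.5 CPM in Mock and at 31.2, 34.0 and 32.4 CPM in Rin. The groups did not overlap, and the spread within each was small beside the gap between them. The log2 fold change was 0.50 (SE 0.08, 95% interval 0.34 to 0.66), with an adjusted p of 0.0104 by edgeR's quasi-likelihood test with Benjamini-Hochberg adjustment. Without Mock replicate 1 it was 0.47 and no longer passed, at an adjusted p of 0.0683 by the same edgeR test with Benjamini-Hochberg adjustment. Of the 6 fits that left out 1 library, 2 called it, those without Mock replicate 2 and without Rin replicate 1. In the stress libraries osk was 22.8, 25.7 and 23.8 CPM in Mock and 28.7, 27.3 and 27.9 CPM in Rin, a log2 fold change of 0.22. In the recovery libraries it was 19.9, 21.8 and 20.5 CPM in Mock and 20.6, 22.3 and 25.6 CPM in Rin, a log2 fold change of 0.13. The Rin minus Mock value in recovery was lower than in control by a log2 difference of -0.37 (SE 0.11) with an unadjusted p of 0.00409 by edgeR, which did not pass after Benjamini-Hochberg adjustment (adjusted p 0.549). The annotation places lncRNA:osk on the same strand and asRNA:CR44020 on the opposite strand of osk. Neither was among the genes tested, and their reads, if any, may not have been separated from those of osk.

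The transporter gene Zip99C was also higher in all 3 Rin libraries. It encodes a member of the ZIP family of zinc and iron carriers and lies on chromosome arm 3R, from 29863701 to 29868895 of dm6. Transcript stood at 127, 124 and 119 CPM in Mock and at 158, 160 and 157 CPM in Rin. The groups were well separated, and the Rin libraries were nearly equal. The log2 fold change was 0.36 (SE 0.06), with an adjusted p of 0.0313 by edgeR's quasi-likelihood test with Benjamini-Hochberg adjustment. It was 0.38 without Mock replicate 1, at an adjusted p of 0.0683 by the same edgeR test with Benjamini-Hochberg adjustment, and none of the 6 fits that left out 1 library called it, although its value stayed between 0.34 and 0.38. In the separate stress and recovery libraries the gene was called, at 0.41 in each.

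CG30089, a protein-coding gene on chromosome arm 2R that carries no name in the files, fell. It stood at 205, 223 and 214 CPM in Mock and at 173, 171 and 175 CPM in Rin, with no overlap. The log2 fold change was -0.31 (SE 0.05), with an adjusted p of 0.0313 by edgeR's quasi-likelihood test with Benjamini-Hochberg adjustment. It passed in 4 of 14 alternative fits and in none of the 6 that left out 1 library, within a range of -0.34 to -0.27. Without Mock replicate 1 the value was -0.34. Scaling by RLE size factors moved its adjusted p to 0.05 and scaling by total library size to 0.0986, both by edgeR's quasi-likelihood test with Benjamini-Hochberg adjustment. In stress and in recovery it was called in the same direction, at -0.28 and -0.35. With rin and Zip99C, it was 1 of the 3 genes called in control, in stress and in recovery.

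The other 6 genes of the authors' deposited table fell short of the threshold by edgeR. For each the Mock and Rin libraries did not overlap, which was so for 15.5% of all genes. These genes were picked by a low p on the same libraries, which makes such a gap likely. CG15784, an uncharacterised gene, stood at 314, 340 and 283 CPM in Mock and at 402, 391 and 423 CPM in Rin. The gene out encodes a monocarboxylate transporter family member needed for germ cell migration in the embryo, and it stood at 54.1, 60.3 and 61.4 CPM in Mock and at 71.9, 74.4 and 72.3 CPM in Rin. The log2 fold changes by edgeR were 0.37 (SE 0.08) for CG15784 and 0.32 (SE 0.06) for out. CG2909 stood at 130, 124 and 126 CPM in Mock and at 154, 159 and 151 CPM in Rin, a log2 fold change of 0.29, and CG2444, a weaker gene, went from 13.0, 11.0 and 11.2 CPM to 18.4, 18.1 and 16.7 CPM, a log2 fold change of 0.59. Lower in all 3 Rin libraries were Glt, which encodes the basement membrane glycoprotein Glutactin, and mod(mdg4), which encodes a family of chromatin insulator proteins. Glt stood at 190, 215 and 205 CPM in Mock and at 165, 155 and 168 CPM in Rin, a log2 fold change of -0.32, and mod(mdg4) stood at 230, 239 and 244 CPM in Mock and at 204, 203 and 207 CPM in Rin, a log2 fold change of -0.22. Adjusted p for these 6 ran from 0.09 for out to 0.192 for mod(mdg4), by edgeR's quasi-likelihood test with Benjamini-Hochberg adjustment. In the authors' deposited table their adjusted p ran from 0.00382 for CG2909 to 0.0489 for CG2444. Many small genes lie within mod(mdg4) on both strands in the annotation, and CG2909 overlaps Gip on the opposite strand, at -0.17.

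**Figure D1:**
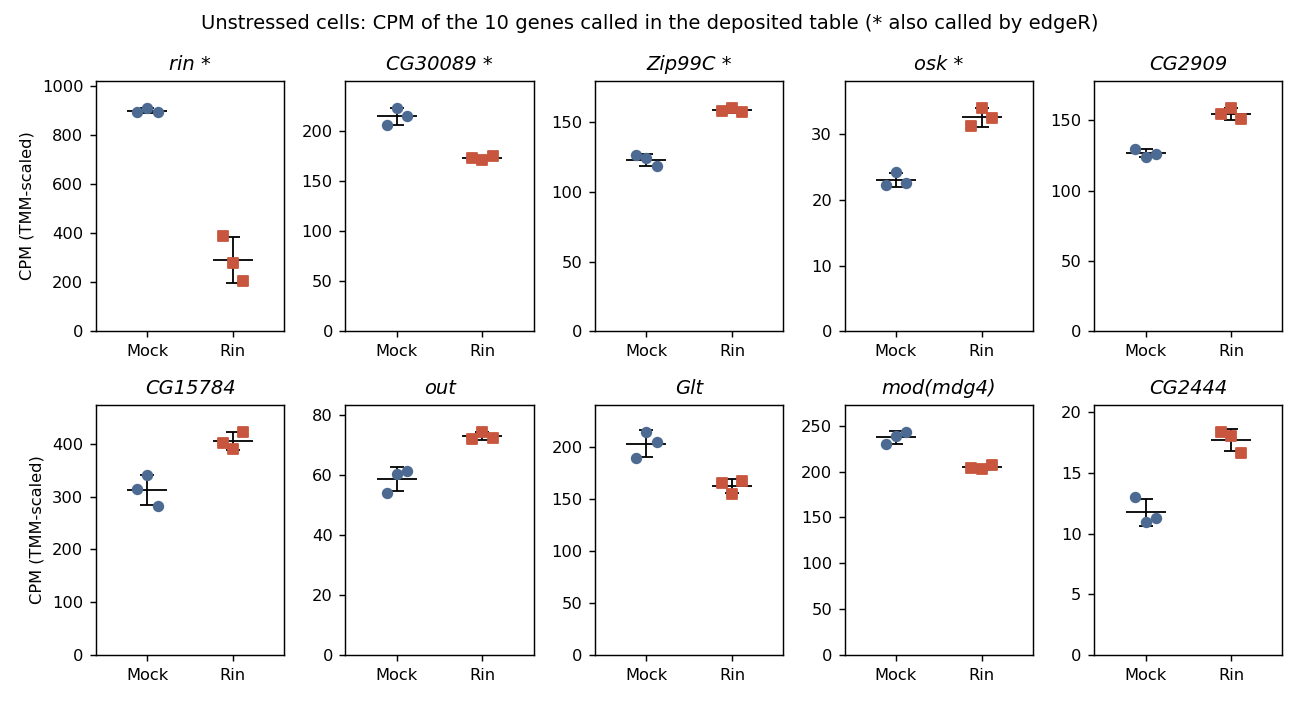
CPM of the 10 genes with an adjusted p under 0.05 in the authors' deposited table, in the 3 Mock (circles) and 3 Rin (squares) untreated libraries, with the mean and SD as bars and the vertical axis from 0. An asterisk marks the 4 genes also called by edgeR. In all 10 panels the groups do not overlap, which the choice of these genes by p on the same libraries makes likely.

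Beyond these, the largest shifts among well-measured genes were modest and none passed the test. Genes were ranked by log2 fold change among those with at least 10 CPM in either group and no overlap of libraries, which left 514 higher and 589 lower of 6444. On the high side after CG2444 and osk came Vlet and CG45060 (both 0.43), CG13766 and Lrrk (both 0.40), and then sad and Nrg (both 0.39). Lrrk encodes a leucine-rich repeat kinase, sad an enzyme of ecdysone synthesis and Nrg the cell adhesion protein Neuroglian. Lrrk stood at 24.5, 31.4 and 31.5 CPM in Mock and at 37.7, 37.0 and 40.0 CPM in Rin, and without Mock replicate 1, its lowest library, the value was 0.28. Nrg stood at 35.8, 46.1 and 40.9 CPM in Mock and at 56.8, 54.8 and 49.1 CPM in Rin, and without the same library it was 0.29. On the low side after rin came Ance at -0.55 and Tsp42Ea at -0.53, which encode a peptidase of the angiotensin-converting enzyme family and a tetraspanin. Ance went from 18.9, 17.3 and 19.2 CPM in Mock to 13.1, 10.8 and 13.9 CPM in Rin, and Tsp42Ea from 21.3, 23.4 and 21.8 CPM to 13.9, 16.8 and 15.6 CPM. Their values were -0.52 and -0.56 without Mock replicate 1. Then followed the peroxiredoxin gene Prx2540-1 (-0.41), CG31808 (-0.40), lncRNA:CR43423 (-0.39), the myosin light chain gene Mlc2 (-0.39) and CG12075 (-0.38). Prx2540-1 has a near-identical copy, so how reads were split between the copies is uncertain, and it stood at 136 CPM in Mock replicate 1 against 97.2 and 104 CPM in the other 2 Mock libraries, with -0.24 when that library was left out.

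The knockdown difference in resting cells was set beside the same difference in the stress and recovery libraries, which share no library with the control groups. The labels do not say whether these sets came from the same knockdown cultures. From Rin replicate 1 to 3, rin stood at 285, 180 and 145 CPM in stress and at 252, 181 and 150 CPM in recovery. That is the same order as in control. All sets were also fitted together, so agreement between them may not be independent. In stress 14 genes were called (0.161%) and in recovery 11 (0.126%). Apart from the 3 called in control, these make 16 genes, and in control all 16 had the sign they had where they were called. Of the 16, 12 had an unadjusted p under 0.05 in control against 7.45% of all genes, and in 11 the control libraries did not overlap, against 15.5% of all genes. Arc1, which encodes a capsid-forming protein related to retrotransposon Gag, stood at 388, 367 and 324 CPM in untreated Mock and at 465, 431 and 449 CPM in untreated Rin. Its log2 fold change was 0.32 in control, 0.49 in stress and 0.49 in recovery. CG6329, the largest of the 16, had 4.79, 5.53 and 5.16 CPM in Mock and 3.68, 3.09 and 2.18 CPM in Rin, a value of -0.79 in control, -0.90 in stress and -0.60 in recovery. Fmo-2, a flavin monooxygenase gene, had -0.36, -0.37 and -0.44, and CG30484 had 0.32, 0.51 and 0.34.

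Other genes had values nearer to 0 in control than where they were called. HGTX, a homeobox gene, stood at 184, 207 and 202 CPM in Mock and at 181, 181 and 190 CPM in Rin without stress, with overlapping groups and a log2 fold change of -0.10, against -0.42 in stress and -0.53 in recovery. The antisense transcript asRNA:CR45195 had 0.12 in control, 0.51 in stress and 0.40 in recovery, and the small heat-shock protein gene Hsp27 had 0.04, 0.11 and 0.31. With Mock replicate 1 left out the control values lay farther from 0, at -0.15 for HGTX, 0.20 for asRNA:CR45195 and 0.10 for Hsp27. CG15309 had -0.05 in control and -0.27 in stress, C1GalTA, a glycosyltransferase gene, -0.19 and -0.36, and CG33926 0.21 and, in recovery, 0.41. None of these differences between conditions passed after adjustment. Tested as the difference of the Rin minus Mock values, 0 of 8707 genes passed between stress and control and 0 between recovery and control by edgeR, with 295 (3.39%) and 759 (8.72%) genes at an unadjusted p under 0.05. DESeq2 and limma voom also called 0 in each. For rin the difference was -0.39 (SE 0.29) between stress and control and -0.45 (SE 0.29) between recovery and control.

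**Figure D2:**
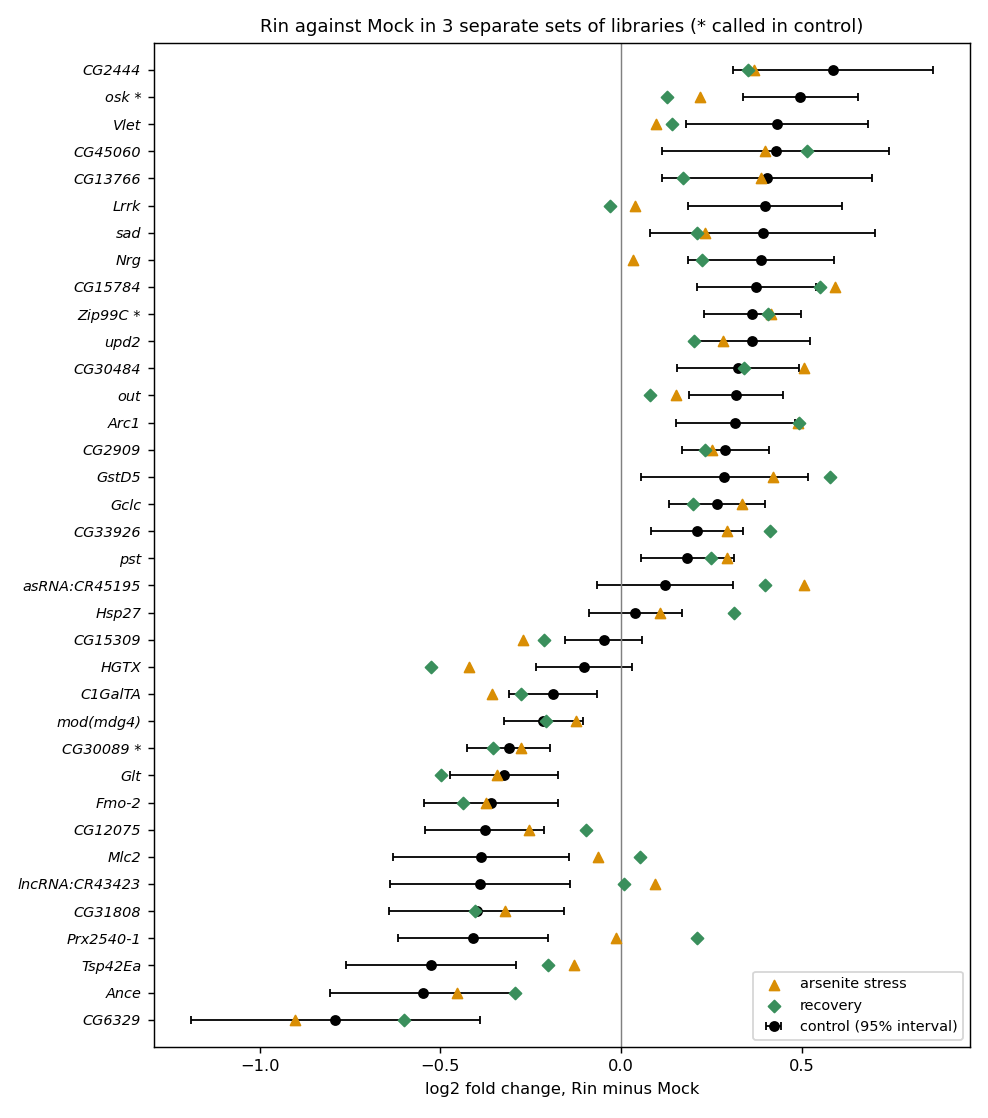
Log2 fold change of Rin minus Mock for the genes named one by one, rin left out for scale, in control (black, with 95% interval), stress (triangles) and recovery (diamonds). An asterisk marks genes called in control. Genes such as Zip99C and CG30089 have nearly the same value in the 3 sets, while HGTX and asRNA:CR45195 lie closer to 0 in control.

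Over all 8707 genes the sign in control matched the sign in stress for 59.8% and the sign in recovery for 46.8%. Among the 35 genes with an unadjusted p under 0.001 in control the counts were 33 in stress and 29 in recovery. Across the 6401 genes with at least 10 CPM the control and stress values had a Pearson's r of 0.40, and the control and recovery values -0.01. Genes are not independent replicates, the 18 libraries were scaled together, and these figures are descriptions.

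Gene lists were then described by how many of their tested members passed, their median and how many lay to either side of 0, beside the background of all genes tested, whose median log2 fold change was 0.00. Apart from rin, osk and Zip99C, no member of the lists of pathways and complexes was called by edgeR. DESeq2 called 1 more, Gclc, and limma voom with sample weights, a test chosen after the data had been seen, called Gclc, RpL23A and RpL29.

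Transcripts of stress-granule proteins other than rin itself had values near 0 on the log2 fold-change scale. The list held 14 genes, all tested, among them the fly genes for Caprin, USP10, FMR1 and ataxin-2, and its median was -0.01, or -0.05 without Mock replicate 1. Besides rin, 1 member had an unadjusted p under 0.05, Imp, an RNA-binding protein of the IGF2BP family. Imp stood at 589, 602 and 573 CPM in Mock and at 539, 514 and 425 CPM in Rin, which did not overlap and were lowest in the library with the least rin. Its log2 fold change of -0.26 (SE 0.10) did not pass, with an adjusted p of 0.531 by edgeR's quasi-likelihood test with Benjamini-Hochberg adjustment, and it had -0.32 in stress and -0.23 in recovery. Values for shep and pAbp, the poly(A)-binding protein gene, were -0.12 and -0.10. Summed over the list, the level was 8367 to 8757 CPM in Mock and 7242 to 8114 CPM in Rin, which includes rin.

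Among 27 factors of P-bodies and mRNA decay, 20 lay above 0, with a median of 0.03 and of -0.01 without Mock replicate 1. The deadenylase gene Pop2 (0.14) and the endonuclease gene Smg6 (0.15), 2 of 27, had an unadjusted p under 0.05, against 7.45% of all genes. They were also the only 2 of 27 whose libraries did not overlap, against 15.5% of all genes. The 16 tested genes of 3-prime end processing had a median of -0.01, or -0.02 without Mock replicate 1, with none at that p. Among 18 tested genes of osk RNA localisation and germ plasm, osk alone was called, 7 of 18 lay above 0 and the median was -0.01 with and without Mock replicate 1. The next by p was the germ plasm gene tud, at 0.26, with 343 CPM in Mock replicate 1, 460 and 464 CPM in the other 2 and 474 to 522 CPM in Rin. Without Mock replicate 1 its value was 0.13.

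The machinery of RNA interference itself was covered by 17 genes, with a median of 0.05 and of -0.01 without Mock replicate 1. AGO2, the slicer of the small interfering RNA pathway, stood at 435, 479 and 458 CPM in Mock and at 525, 507 and 541 CPM in Rin, with no overlap, a log2 fold change of 0.20 (SE 0.06) and an adjusted p of 0.411 by edgeR's quasi-likelihood test with Benjamini-Hochberg adjustment. Dcr-2, which cuts double-stranded RNA, stood at 174, 206 and 197 CPM in Mock and at 227, 217 and 228 CPM in Rin, a value of 0.22. The microRNA processor gene drosha had 0.17. Without Mock replicate 1 these values were 0.16, 0.15 and 0.10 for AGO2, Dcr-2 and drosha. In stress they were 0.10, 0.11 and 0.07, and in recovery -0.08, -0.04 and -0.05.

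Cytosolic ribosomal protein genes lay lower in Rin as a group, although none was called. Of 89 tested, 88 had a log2 fold change below 0, the median was -0.18, and 54 did not overlap between groups, all lower, or 54 of 89 against 8.07% of all genes. An unadjusted p under 0.05 was reached by 27, all lower, against 3.78% of all genes. The lowest adjusted p was 0.262, for RpL23A, by edgeR's quasi-likelihood test with Benjamini-Hochberg adjustment. RpL23A stood at 3833, 3716 and 3455 CPM in Mock and at 3100, 3111 and 3070 CPM in Rin, a value of -0.25 (SE 0.06). RpL29 stood at 1476, 1306 and 1269 CPM in Mock and at 1032, 1117 and 994 CPM in Rin, a value of -0.37 (SE 0.11), and RpS26 and RpL34b had -0.28 and -0.27.

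The share of all gene counts that fell on ribosomal protein genes was 20.0%, 17.6% and 17.6% in Mock replicates 1 to 3 and 16.2%, 17.3% and 16.0% in Rin replicates 1 to 3. The groups did not overlap, but Mock replicate 1 was the highest of the 6, and Rin replicate 2 lay just under the other 2 Mock libraries. Without Mock replicate 1 the median was -0.12, and 87 of 89 still lay below 0. Over all alternatives it ranged from -0.21 to -0.12. In the stress libraries the median was -0.11, with 81 of 89 below 0, but this value rested on 1 library. Mock stress replicate 2 held a share of 27.7%, above the other 2 Mock stress libraries (21.1% and 22%) and the 3 Rin stress libraries (22% to 22.3%), and without it the stress median was 0.05, with 11 of 89 below 0. That library was left out after the data had been seen. In the recovery libraries the median was 0.08, with 3 of 89 below 0, so the direction in control was not shared by all 3 sets.

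**Figure D3:**
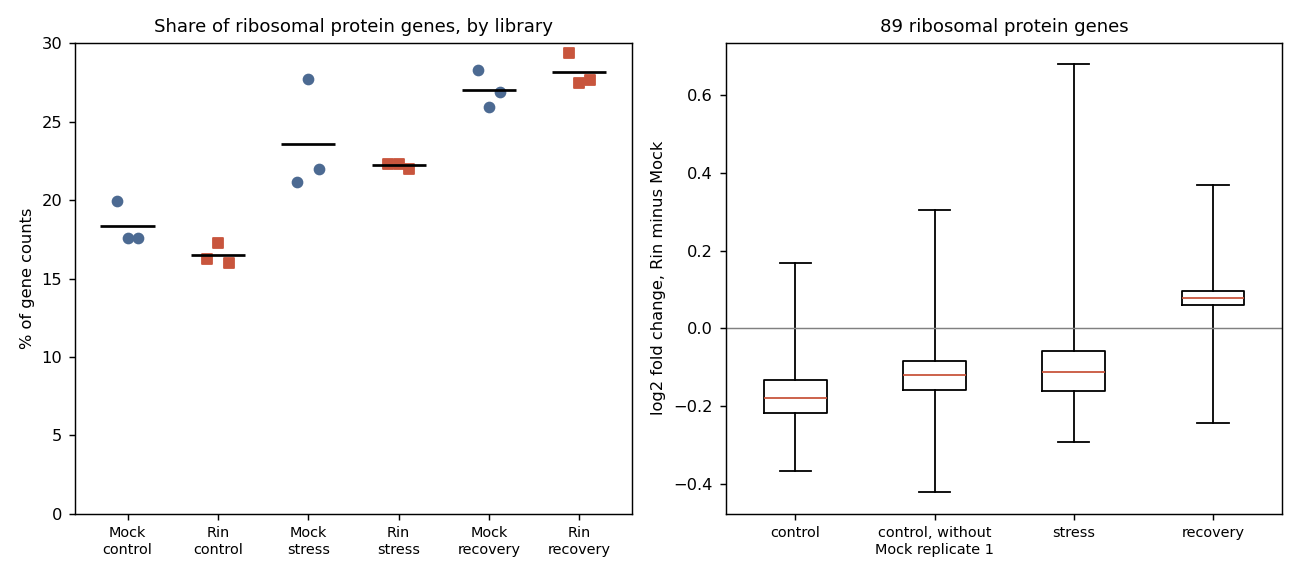
Left, the share of gene counts on cytosolic ribosomal protein genes in each Mock (circles) and Rin (squares) library, with the group mean as a bar. Right, log2 fold changes of the 89 genes as boxes (median and quartiles, whiskers to the extremes), below 0 for 88 of 89 in control and above 0 for most in recovery. Mock stress replicate 2, at 27.7%, lies above the other stress libraries.

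Length moved with the same library. Among genes of at least 10 CPM and outside the ribosomal list, the median log2 fold change went from -0.07 for the 651 genes with an exonic length under 1 kb, through -0.02, 0.00 and 0.03, to 0.06 for the 919 genes over 5 kb. Without Mock replicate 1 these 5 medians lay between -0.01 and 0.00. Ribosomal protein genes are short, and the 51 under 1 kb had a median of -0.19, or -0.13 without that library. The other genes under 1 kb had -0.07 and -0.01, and the 71 at 100 CPM or more had -0.08 with all 6 libraries. Genes were not matched by level or by length within the class. The part of length in the ribosomal shift was not tested. In recovery the order by length was the opposite, from 0.10 for the shortest class to -0.12 for the longest, and in stress the 5 medians were all 0.00. The part of length in the shifts of other lists was not tested.

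**Figure D4:**
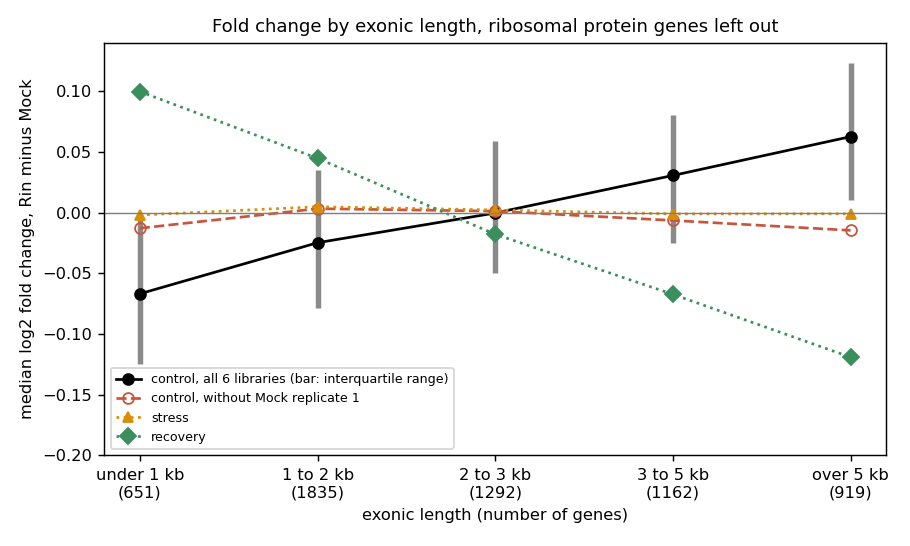
Median log2 fold change of Rin minus Mock by exonic length for genes of at least 10 CPM, ribosomal protein genes left out, in control with all 6 libraries (filled circles, bars for the quartiles), in control without Mock replicate 1 (open circles), in stress and in recovery. The slope in control, from -0.07 to 0.06, is nearly gone without Mock replicate 1.

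Mitochondrial ribosomal protein genes had a median of -0.08 over 72 genes, with 15 above 0, and of -0.03 without Mock replicate 1. In 13 of the 72 every Rin library lay below every Mock library, against 8.07% of all genes. In 0 of the 72 every Rin library lay above, against 7.43% of all genes. The 4 with the lowest p were mRpS24 (-0.31), mRpL41 (-0.34), mRpL40 (-0.33) and mRpS25 (-0.26). mRpL40 stood at 21.4, 22.4 and 25.5 CPM in Mock and at 18.1, 17.5 and 19.0 CPM in Rin, and its value was -0.39 without Mock replicate 1. Nuclear genes of oxidative phosphorylation had a median of -0.09 over 68 genes, with 8 above 0, and of -0.04 without that library. In 16 of the 68 every Rin library lay below every Mock library, against 8.07% of all genes. In 1 of the 68 every Rin library lay above, against 7.43% of all genes. The complex I subunit gene ND-24 stood at 62.2, 61.7 and 62.6 CPM in Mock and at 52.5, 54.6 and 56.2 CPM in Rin (-0.19), and ND-ASHI (-0.23), ND-13B (-0.25) and SdhC (-0.23) were similar in size. Leaving out Mock replicate 1 gave -0.15, -0.18 and -0.22 for these 3, and the groups of ND-ASHI overlapped. In recovery both lists lay above 0, at 0.10 each.

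Translation initiation and elongation factors had a median of 0.00 over 44 genes, with and without Mock replicate 1, and 22 above 0. The elongation factor gene eEF2 stood at 8466, 8735 and 8425 CPM in Mock and at 9069, 8879 and 9399 CPM in Rin, a value of 0.09, while eEF1beta had -0.15. Aminoacyl-tRNA synthetase genes had a median of 0.03 over 32 genes, also without that library. AlaRS had 0.13, and PheRS-m had -0.15, or -0.08 without that library. Proteasome subunit genes had -0.01 over 35 (0.01 without that library) and vacuolar proton pump genes -0.01 over 23 (also -0.01), with no member of either at an unadjusted p under 0.05.

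Heat-shock genes, a class that stress induces, lay mostly above 0 without any arsenite, and no member passed. Of 14 tested, 12 lay above 0 and the median was 0.13, or 0.11 without Mock replicate 1. Only 1 of the 14 had an unadjusted p under 0.05, against 7.45% of all genes. This was the small heat-shock protein gene Hsp26, with a value of 0.18 (SE 0.08). It stood at 138, 129 and 125 CPM in Mock and at 147, 166 and 133 CPM in Rin, which overlapped. Hsp68 stood at 160, 145 and 134 CPM in Mock and at 191, 177 and 152 CPM in Rin, a value of 0.24. Hsp70Bb had 0.18, or 0.10 without Mock replicate 1, and Hsp70Bc, at under 10 CPM, had 0.43, or 0.64. Members of the Hsp70 family share near-identical sequence, so how reads were split between copies is uncertain. The summed level of the list overlapped between groups, at 5226 to 5672 CPM in Mock and 5226 to 5616 CPM in Rin. Of that sum Hsp83, named after its value was seen, gave 3945 to 4291 CPM in Mock and 3805 to 4185 CPM in Rin.

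Among 17 tested genes of metal and oxidant defence, 4 had an unadjusted p under 0.05, all higher, against 3.68% of all genes, and the median was 0.04 with and without Mock replicate 1. Gclc, the catalytic subunit of the enzyme that starts glutathione synthesis, stood at 170, 187 and 166 CPM in Mock and at 212, 206 and 211 CPM in Rin. Its groups were clearly apart, with a log2 fold change of 0.27 (SE 0.06) and an adjusted p of 0.192 by edgeR's quasi-likelihood test with Benjamini-Hochberg adjustment, and it was called in stress at 0.34. The others were ref(2)P, the fly p62 autophagy receptor gene, at 0.19, the glutathione transferase gene GstD5 at 0.29 and the heme oxygenase gene Ho at 0.26. GstD5 stood at 35.2, 38.0 and 32.6 CPM in Mock and at 44.5, 47.2 and 37.8 CPM in Rin, where the lowest Rin library fell just below the highest Mock library.

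The 19 tested genes for zinc, iron and copper transport included Zip99C and had a median of 0.06, or 0.05 without Mock replicate 1. ZnT77C, a zinc exporter gene, stood at 15.2, 14.7 and 15.2 CPM in Mock and at 10.2, 12.2 and 12.3 CPM in Rin, a value of -0.38 with an adjusted p of 0.26 by edgeR's quasi-likelihood test with Benjamini-Hochberg adjustment. It had 0.13 in stress and 0.00 in recovery. The iron and manganese carrier gene Mvl had 0.21, with 63.1 to 65.8 CPM in Mock and 71.2 to 77.6 CPM in Rin, and Fer1HCH, a ferritin chain, had 0.11.

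In the integrated stress and unfolded protein response list, 16 genes had a median of 0.03, which was 0.00 without Mock replicate 1. The kinase gene Gcn2, which senses amino acid shortage, stood at 67.4, 83.2 and 76.1 CPM in Mock and at 94.3, 89.3 and 92.8 CPM in Rin, a value of 0.29 and of 0.21 without Mock replicate 1, its lowest library. Xbp1, a transcription factor of the unfolded protein response, had -0.12, and Thor, which encodes the translation inhibitor 4E-BP, had -0.32 with overlapping groups at 7.36 to 11.7 CPM. Autophagy genes had a median of 0.07 over 23 genes (0.05 without Mock replicate 1), with 17 above 0, and Atg1, the kinase that starts autophagy, had 0.20, or 0.11 without that library. Genes of apoptosis had a median of 0.03 over 13, also without it, with the caspase gene Drice at 0.11.

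Signalling lists were described because rin was found through Ras signalling. Of 22 Ras and MAP kinase genes, 19 lay above 0, against 50.5% of all genes, with a median of 0.05 and of 0.04 without Mock replicate 1. The share above 0 varied with exonic length among genes of at least 10 CPM outside the ribosomal list. It was 24.6% under 1 kb, 64.4% at 3 to 5 kb and 78.8% over 5 kb. The part of length in the count for this list was not tested. The fly ERK gene rl had 0.18, with an unadjusted p under 0.05. Transcript of rl stood at 52.5, 57.6 and 70.1 CPM in Mock and at 67.0, 68.5 and 67.2 CPM in Rin, which overlapped, and its value was 0.09 without Mock replicate 1. In stress and recovery the median of the list was -0.01 and -0.05. JNK pathway genes had a median of 0.04 over 12, TOR and insulin pathway genes 0.03 over 24, and Toll and Imd pathway genes 0.01 over 21. With Mock replicate 1 left out these medians were 0.00, 0.00 and -0.01. Among these, foxo had 0.24 and key, a subunit of the IKK complex, had 0.14, and both had an unadjusted p under 0.05.

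JAK-STAT and antiviral genes had 5 of 14 members with an unadjusted p under 0.05, all higher, against 3.68% of all genes. The cytokine gene upd2 stood at 17.8, 18.3 and 17.5 CPM in Mock and at 24.8, 23.3 and 20.9 CPM in Rin. The groups were apart, with a log2 fold change of 0.36 (SE 0.08) and an adjusted p of 0.107 by edgeR's quasi-likelihood test with Benjamini-Hochberg adjustment, and the value was the same without Mock replicate 1. In stress it was called at 0.28. A second ligand gene, upd3, had 0.29 with overlapping groups. The antiviral genes pst, Sting and, named after its value was seen, Nazo had 0.18, 0.16 and 0.26, each with no overlap, and pst stood at 137, 135 and 136 CPM in Mock and at 149, 155 and 160 CPM in Rin. The median of the list was 0.06, and it was -0.01 without Mock replicate 1. The list's summed level was 1276 to 1357 CPM in Mock and 1362 to 1397 CPM in Rin, with no overlap.

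Genes of growth and division lay mostly a little below 0, and none passed. Cyclins and mitotic regulators had 4 of 23 above 0 and a median of -0.02, or -0.07 without Mock replicate 1. Incenp, a subunit of the chromosomal passenger complex, stood at 165, 163 and 161 CPM in Mock and at 138, 154 and 144 CPM in Rin, a value of -0.17, and it had -0.17 in stress and -0.16 in recovery. DNA replication genes had 8 of 24 above 0 and a median of -0.04, or -0.05 without that library, with the chromatin assembly gene Caf1-105 at -0.17. Fatty acid synthesis genes had a median of 0.01 over 13 and of -0.08 without Mock replicate 1, a change of sign, with the desaturase gene Desat1 at -0.12. Of the histone genes only 5 were tested, with a median of -0.11, or -0.05 without Mock replicate 1, and the variant gene His2Av at -0.17. Replication-dependent histone transcripts end without a poly(A) tail, so poly(A)-selected libraries hold little of them.

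**Figure D5:**
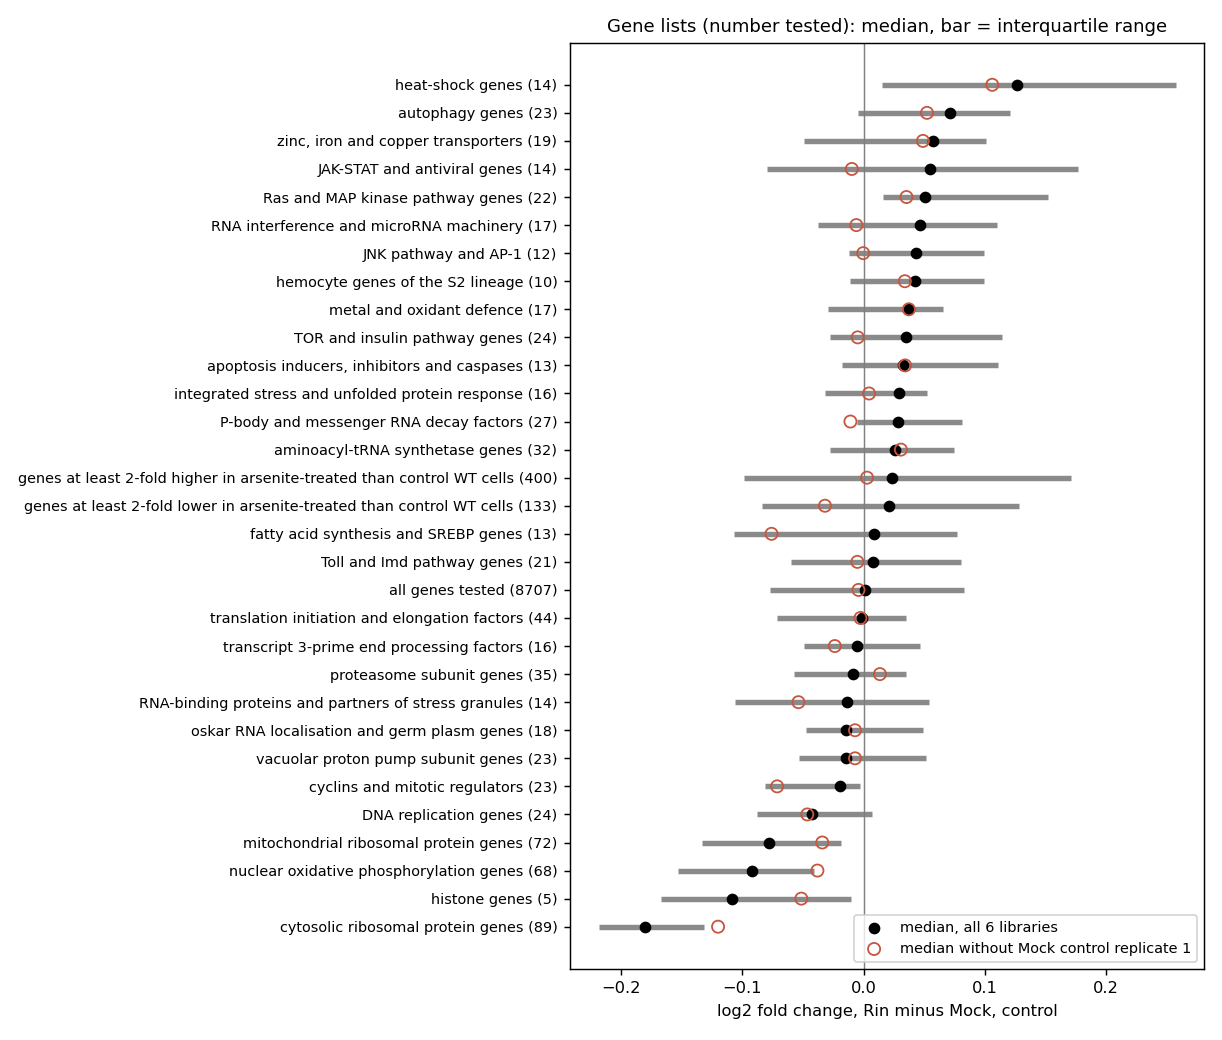
Median log2 fold change of Rin minus Mock in control for the lists of at least 5 tested genes that are described here, neuron markers left out, with all 6 libraries (black, bars for the quartiles) and without Mock control replicate 1 (open circles). Cytosolic ribosomal protein genes lie lowest, at -0.18 and -0.12, and heat-shock genes highest, at 0.13 and 0.11.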

How the data were processed

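The 6 libraries were grouped by title and condition label, and the members and gene lists were chosen with earlier results of these data known. The authors deposited raw counts of reads per gene symbol for each library (17137 symbols). The submitters' processing notes name STAR 2.5.3, HTSeq, DESeq2 and the build dm6, without roles, while the strand setting and annotation are not given in the sources used here. Reads of overlapping genes on opposite strands may therefore not be separated, and reads with several alignments, 3.95% to 7.51% of the control libraries, were counted apart from genes. The authors' deposited DESeq2 table of the control comparison gives a baseMean (a signal, the mean of counts divided by size factors), a log2 fold change, its test statistic (a score) and p-values, per the file headers. Its log2 fold changes had a Pearson's r of 0.99 with those computed here across 8707 genes. Other deposited comparison tables and libraries outside the Mock, Rin, WT control and WT stress groups were not used here.

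From the counts, all 18 Mock and Rin libraries were fitted on group means with edgeR 4.0.16 in R 4.3.3 (quasi-likelihood test, TMM scaling, factors 1.09 to 1.11 in the 6 libraries). The filterByExpr function kept 8707 of 17137 genes, and the biological coefficient of variation was 6.49%. Tests were two-sided, p-values were adjusted by Benjamini-Hochberg over all genes tested, and a gene was called at an adjusted p under 0.05. CPM was computed with TMM-scaled library sizes. Alternatives were RLE factors, total library size, no filter, a mean of at least 10 CPM, a minimum log2 fold change of 1 either way, the DESeq2 1.42.0 Wald test, the replicate number as a block, a fit of only the groups compared, each replicate left out, and limma 3.58.1 voom with sample weights, added after the data were seen. Named are rin and its neighbours, genes called here or in the deposited table, the 8 genes at each end of the log2 fold-change ranking with at least 10 CPM and no overlap, genes called in stress or recovery, up to 4 members with the lowest p of each of the 37 lists, and marker genes. Nazo, Hsp83 and Gip, which overlaps a named gene, were named after their values were seen. Some genes and 1 list are not reported here. Lengths and coordinates came from the Ensembl annotation of the same assembly by symbol, which matched 8152 of 8707 tested genes (93.6%). Mitochondrially encoded genes were in the lists but have no symbol in the counts used here.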

Additional observations from a re-analysis of the deposited data

How the results depend on the processing

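The fall of rin was called under each of the 14 alternatives, at -1.89 to -1.42. The number of genes called in control, 4, was 58 with no filter on low counts, 11 with the DESeq2 Wald test, 23 with limma voom and sample weights, and 1 with a minimum log2 fold change of 1 either way. It was 3 under RLE factors, total library size and the fit of only the groups compared, and 1 to 2 when 1 of the 6 libraries was left out. With no filter on low counts the difference of Rin minus Mock called 2 genes between stress and control and 51 between recovery and control, where the fit as reported and the other alternatives called 0. The cause of these differences was not tested. Among the genes named in the report, the sign turned in 3: sqd (0.0069 with total library size, 0.0012 with no filter, -0.0625 to 0.0216 with a replicate left out), Hrb87F (0.0133, 0.0078 and -0.0296 to 0.0256 in the same order) and Rbp4 (-0.25 to 0.0029 with a replicate left out).

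Replicate numbers are shared by the Mock and Rin labels, but same-numbered control libraries did not deviate together (correlations of -0.16, -0.21 and 0.06 over 6432 genes), so they were not treated as pairs. With the replicate number as a block 3 genes were called, and rin had -1.67. Depth limits statements about genes below 1 CPM.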

Other observations

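Genes that arsenite moves in unmodified WT cells were also looked up in the resting knockdown. The 400 tested genes at least 2-fold higher in arsenite-treated than in control WT cells had a median log2 fold change of 0.02 in Rin against Mock without arsenite, with 222 above 0, 21 at an unadjusted p under 0.05 on the high side and 15 on the low side, where all genes had 3.68% and 3.78%. Their median was 0.00 without Mock replicate 1. The 133 genes at least 2-fold lower in WT had a median of 0.02, with 74 above 0, 2 high and 11 low at that p, and a median of -0.03 without Mock replicate 1. The median of all genes tested was 0.00.

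Levels in unmodified WT control cells, scaled in a fit of their own and so only set beside the others, differed between the called genes. WT cells had 720 ± 15.5 CPM of rin (SD, n = 3), 12.3 ± 1.18 CPM of osk (n = 3), 236 ± 2.57 CPM of Zip99C (n = 3) and 372 ± 6.04 CPM of CG30089 (n = 3). For Zip99C and CG30089 the WT level was above both the Mock and the Rin level, and for osk it was below both. The basement membrane gene Glt stood at 1434 to 1500 CPM in WT and at 190 to 215 CPM in Mock.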
